A study of Mus musculus with 36 samples.

Results

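Of 18 brain arrays from modafinil-conditioned mice, 13 carried a high signal of Gbp2 and 5 a signal near that of vehicle arrays. The classes were chosen by that readout. For the first of the 2 Gbp2 probe sets by array ID, the mean of the vehicle arrays of the same brain region was subtracted from each modafinil array, and an array was called low under 1.0 on the log2 scale and high at 1.0 or more. The 13 high arrays were 4 from the ventral tegmental area (VTA), 3 from the nucleus accumbens (NAC) and 6 from the prefrontal cortex (PFC). The 5 low arrays were 1 from VTA, 2 from NAC and 2 from PFC. The whole series held 36 arrays, the other 18 being vehicle arrays (5 VTA, 5 NAC and 8 PFC).

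Male C57B1/6J mice went through conditioned place preference, where one compartment of a box becomes associated with an injection. Modafinil, a wake-promoting drug that blocks the dopamine transporter, was given at 65 mg/kg within conditioning days 3 to 10, alternating with saline; vehicle mice received saline in its place. Brains were taken on day 11, once the preference test was over, and the final dose lay 24 h back. Tissue was taken as 1 mm punches from 100 µm slices, and RNA was hybridised to Affymetrix mouse expression arrays, whose probe sets lie near the 3′ end of transcripts. The labels do not say which arrays of different regions came from the same mouse, or that array numbers mark mice, so the p-values measure the spread between these arrays.

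Gbp2 encodes a guanylate-binding protein, a large GTPase made in most cells after exposure to interferon. Interferon-gamma acts through its receptor and Jak kinases on genes that carry the gamma-activated site, whereas type I interferons act on genes that carry the interferon-stimulated response element. Both routes raise guanylate-binding proteins, immunity-related GTPases, antigen presentation genes, immunoproteasome subunits and antiviral genes. The circadian clock is a separate loop: Arntl and Clock activate Per, Cry and Nr1d genes through the E-box, and their products repress Arntl and Clock.

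The promoters of 5 interferon-inducible genes and 1 clock gene are shown as examples. These genes were picked by hand, and a promoter without a motif would not have been shown. They therefore do not stand for all genes that did or did not follow the division of the arrays. Each run is the 150 bases before the gene start in RefSeq (build GRCm38.p6), 5′ to 3′ on the gene's strand, and capitals mark the motifs found on either strand.
Gbp2 (chr3:142620513-142620662, + strand): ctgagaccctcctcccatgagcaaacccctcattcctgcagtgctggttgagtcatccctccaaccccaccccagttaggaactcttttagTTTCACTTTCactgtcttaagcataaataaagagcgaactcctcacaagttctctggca
Gbp7 (chr3:142530186-142530335, + strand): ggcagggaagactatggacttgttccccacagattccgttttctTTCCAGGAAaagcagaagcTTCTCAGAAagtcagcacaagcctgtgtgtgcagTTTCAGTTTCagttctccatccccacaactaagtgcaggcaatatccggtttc
Igtp (chr11:58199406-58199555, + strand): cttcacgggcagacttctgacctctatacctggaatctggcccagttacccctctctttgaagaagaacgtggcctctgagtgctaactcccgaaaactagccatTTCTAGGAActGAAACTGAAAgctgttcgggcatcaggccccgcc
Irgm2 (chr11:58214827-58214976, + strand): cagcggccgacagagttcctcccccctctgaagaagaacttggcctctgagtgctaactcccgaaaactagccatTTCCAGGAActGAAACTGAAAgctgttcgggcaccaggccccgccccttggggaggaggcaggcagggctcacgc
B2m (chr2:122147537-122147686, + strand): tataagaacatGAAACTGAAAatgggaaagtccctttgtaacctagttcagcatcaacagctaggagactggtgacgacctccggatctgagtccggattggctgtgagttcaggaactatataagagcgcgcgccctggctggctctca
Ciart (chr3:95882229-95882378, - strand): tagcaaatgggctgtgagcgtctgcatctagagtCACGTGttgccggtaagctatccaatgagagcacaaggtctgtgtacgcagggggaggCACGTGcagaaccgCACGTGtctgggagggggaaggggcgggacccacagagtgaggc
In Gbp2 the capitals are 1 response element core (GAAANNGAAA, here on the other strand) that starts 59 bases before the gene start. Gbp7 has 1 such core and 2 gamma-activated site cores (TTCNNNGAA). Igtp and Irgm2 each have 1 core of each kind, with 2 bases between them, and B2m has 1 response element core. Ciart has 3 E-boxes (CACGTG). A match is only a run of letters, and none was tested for binding.

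The motifs were counted within 250 bases before the start, on both strands. Of 47 genes with every high array above every low array, 39 had a promoter in the table, and 14 of these (35.9%) held the response element core, against 3.46% of 27025 genes in all. The 47 were picked by the division of these same arrays and include Gbp2, which made it. The 27025 are all genes with a promoter, not only those tested, so these shares are a description and no test. The gamma-activated site core was in 8 of the 39 (20.5%), against 8.13% of all genes. The E-box was in 1 of the 39 (2.56%) and in 6.86% of all genes. Of 20 genes in the 3 clock lists, 17 had a promoter in the table: none held the response element core, and 5 (29.4%) held the E-box.

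PFC arrays lay on a higher scale than the others, with median levels of 7.202 to 7.267 log2, against 6.759 to 6.897 in VTA and NAC, so each value is given below as the difference from the vehicle mean of its own region unless a level is named. The median level ran from 6.76 to 7.25 in high arrays, 6.79 to 7.26 in low arrays and 6.77 to 7.27 in vehicle arrays. The difference between the 3′ and 5′ Gapdh probe sets, a measure of RNA integrity, ran from -0.12 to 0.32 in high, -0.15 to 0.11 in low and -0.17 to 0.21 in vehicle arrays. In NAC it did not overlap, at -0.08 to 0.21 in 3 high and -0.15 to -0.12 in 2 low arrays. In VTA and PFC it did. The same measure for actin was 0.85 to 0.97 in high and 0.70 to 0.79 in low NAC arrays. In VTA it was 0.90 to 0.97 in high arrays and 0.98 in the low one. The part of RNA integrity in the division was not tested. Regional neuron markers lay outside the vehicle range in some low and some high arrays. Of the low arrays, PFC 3 stood furthest apart: its striatal marker level was 10.35, against 9.02 in the next modafinil PFC array. In it Gpr6, Tac1 and Drd2, receptors and a neuropeptide precursor of striatal projection neurons, were 3.79, 2.38 and 2.01 above the PFC vehicle mean. Relative to the NAC vehicle mean, the striatal marker level was -0.54 in NAC 3 and -0.97 in NAC 4. Vehicle NAC arrays ran from -0.58 to 0.50, so NAC 4 lay outside and NAC 3 within. The cortical marker level was 0.61 and 0.65 in these 2, both within the -0.79 to 0.76 of vehicle NAC arrays. In the high array NAC 2 it was -1.10, outside that range. The low-array values that PFC 3 moved most are also given without it.

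The division itself left a wide gap. Gbp2 lay at 2.53 to 3.78 in the 13 high arrays (mean 3.10 ± 0.30, SD), at -0.20 to 0.93 in the 5 low arrays (mean 0.28 ± 0.53, SD), and at -0.48 to 0.45 in the 18 vehicle arrays. The highest low array was PFC 3 at 0.93 and the lowest high array was PFC 1 at 2.53, and no array lay between them. The other low arrays were NAC 3 at 0.77, NAC 4 at 0.014, PFC 6 at -0.13 and VTA 3 at -0.20. NAC 3 and PFC 3 exceeded every vehicle array, while the other 3 lay within the vehicle range. The other Gbp2 probe set gave the same classes, with 2.62 to 3.74 in high and -0.26 to 0.86 in low arrays. Array number 3 was low in all 3 regions, number 4 in NAC only and number 6 in PFC, the one region that has it.

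**Figure D1:**
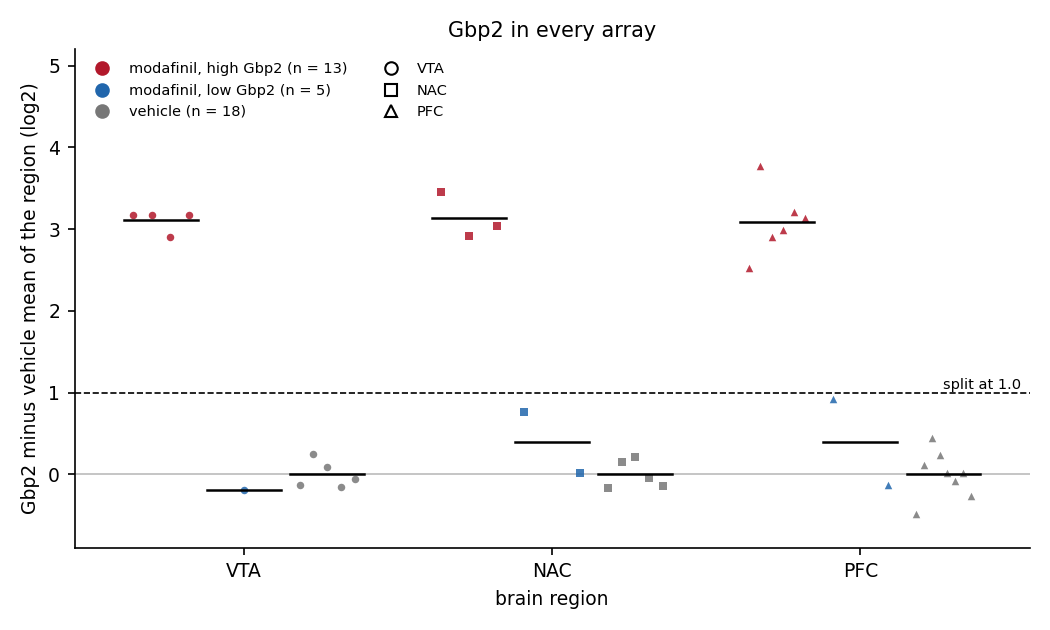
Gbp2 per array as log2 difference from the vehicle mean of its region, for high, low and vehicle arrays from left to right; circles are VTA, squares NAC and triangles PFC, black bars are group means and the dashed line is the division at 1.0. The 13 high arrays sit between 2.53 and 3.78, and the low arrays between -0.20 and 0.93, overlapping the vehicle arrays.

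Since the classes come from a readout of the same arrays, high against low and low against vehicle are described with no test. The tested comparison is modafinil against vehicle over all 36 arrays, with region as a factor, which does not use the classes. Its 18 modafinil arrays include the 13 high ones, so its calls and the classes are not independent. By limma with Benjamini-Hochberg adjustment at 0.05, 120 of 27022 probe sets were higher (0.444%) and 107 lower (0.396%) in modafinil arrays. After quantile normalization of all arrays the counts were 135 higher and 33 lower, so the number of lower calls depends on the scaling. The total of 227 was 145 without modafinil VTA 1, 147 without modafinil NAC 1, 348 without vehicle NAC 2 and 389 without modafinil NAC 3. The 120 higher probe sets covered 80 genes, of which 36 were in the interferon, antigen presentation, immunoproteasome and antiviral lists. Their median was 0.57 in high arrays and 0.07 in low arrays, both against the same vehicle arrays. The 107 lower probe sets covered 97 genes, with a median of -0.21 in high and -0.12 in low arrays. The medians over all probe sets tested were -0.04 for high and 0.01 for low arrays.

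High and low arrays separated completely for 104 probe sets after subtracting the vehicle mean. Every high array was above every low array for 67 of them (0.248% of those tested), and below for 37 (0.137%). The 67 covered 47 genes, 55 of the 67 differed by 0.5 or more, and 59 were among the 120 called higher in modafinil arrays. As 13 of the 18 modafinil arrays were high, that overlap was largely built in and is no separate result. The median over the 67 was 0.86 for high minus vehicle and -0.01 for low minus vehicle. None of the 37 reached a difference of 0.5, and none was called between modafinil and vehicle. Leaving out low array PFC 3, VTA 3 or NAC 4 gave 232, 209 and 180 separated probe sets, and leaving out NAC 3 and PFC 3 together, which was chosen after seeing the data, gave 278, of which 101 were above and 177 below.

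The immunity-related GTPases, which attack the membranes around intracellular parasites, had the largest median difference between high and low arrays among the 28 lists, 2.01. All 5 tested members were called higher in modafinil arrays, and in all 5 every high array was above every low array. The filter took the mean over all 36 arrays, so a dim gene could pass it through its high arrays. Counts among tested members, here and in the lists below, can be raised by such genes. The list median was 2.16 for high minus vehicle and 0.19 for low minus vehicle (0.09 without PFC 3). Iigp1 (1419043_a_at) was 2.59 at the lowest, 3.23 at the median and 3.56 at the highest in high arrays. It was -0.14 in VTA 3, 1.24 in NAC 3, -0.42 in NAC 4, 0.70 in PFC 3 and -0.35 in PFC 6, and it ranged from -0.39 to 0.46 in vehicle arrays. High arrays were thus clear of all others, and NAC 3 and PFC 3 lay between the high and the vehicle arrays. Over all arrays Iigp1 was 2.31 ± 0.32 (SE) higher in modafinil arrays (limma adjusted p = 4.83e-05).

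Irgm2, a regulator of the other immunity-related GTPases, had 1.83, 2.07 and 2.72 as its lowest, median and highest value in high arrays. In low arrays it was -0.21 in VTA 3, 0.77 in NAC 3, -0.12 in NAC 4, 0.78 in PFC 3 and -0.21 in PFC 6, against -0.27 to 0.34 in vehicle arrays. The same 2 low arrays were again above the vehicle range. Igtp followed with a median of 2.17 in high arrays, 0.89 in NAC 3 and 0.49 in PFC 3, against at most 0.21 in vehicle arrays. Ifi47 and Irgm1 were 2.01 and 1.12 higher in high than in low arrays. The mean over the list was 0.75 in NAC 3 and 0.49 in PFC 3, and lay between -0.13 and -0.03 in the other 3 low arrays, against -0.18 to 0.23 in vehicle arrays.

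Guanylate-binding proteins, to which Gbp2 belongs, showed the same order. All 4 tested members were called higher and all 4 separated high from low arrays; Gbp2 itself made the classes and counts as no result. Gbp6 ran from 1.83 to 2.60 in high arrays (median 2.40), from -0.31 to 0.10 in low arrays, and from -0.52 to 0.56 in vehicle arrays. For this gene all 5 low arrays stayed within the vehicle range, NAC 3 and PFC 3 included, at 0.10 each. Gbp3 was 1.37 higher in high than in low arrays and 0.20 higher in low than in vehicle arrays. Gbp7 was 1.29 and 0.08 higher on the probe set used in the list (1434380_at), and 1.73 and 0.08 higher on 1425156_at.

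Transcription factors of the interferon response moved less. Of 8 tested members, 4 were called higher in modafinil arrays and 2 separated high from low arrays. Irf1, which carries the response onward to antigen presentation genes, ran from 0.26 to 1.13 in high arrays (median 0.58). It was -0.08 in VTA 3, -0.03 in NAC 3, -0.15 in NAC 4, 0.05 in PFC 3 and -0.01 in PFC 6, against -0.19 to 0.22 in vehicle arrays. No low array, including those with intermediate Gbp2, had Irf1 outside the vehicle range. Irf7, the master factor of type I interferon genes, was 0.55 higher in high than in low arrays. Over all arrays both rose, Irf1 by 0.41 ± 0.08 (SE, limma adjusted p = 0.0069) and Irf7 by 0.41 ± 0.08 (SE, limma adjusted p = 0.0041). Nlrc5, the transactivator of class I genes, was too dim for the test, and its values were 1.21 to 2.43 in high and -0.43 to 0.68 in low arrays.

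The receptor and kinase genes that start the response were not called, and the interferon genes themselves were too dim for the test. Of 9 tested genes in the list of interferon cytokines, receptors and kinases, 0 were called in either direction by limma. Among them 1 had an unadjusted p under 0.05 by limma (16.6% of all probe sets tested did), and 0 separated high from low arrays. The 9 were receptor chains, kinases, Socs3 and Ptpn2, and included no cytokine. Ifnb1, a type I interferon gene, was below the filter, at 0.09 in high and 0.03 in low arrays against vehicle. Ifng, the gene of interferon-gamma, was below the filter, with -0.13 to 0.20 in high, -0.23 to 0.08 in low and -0.21 to 0.16 in vehicle arrays. The ranges overlapped almost wholly. Ifngr2, a chain of its receptor, had a difference of -0.06 between modafinil and vehicle arrays (limma adjusted p = 0.77), and its median was -0.22 in high arrays, while VTA 3, NAC 3 and NAC 4 had 0.54, 0.44 and 0.52 and the 2 low PFC arrays -0.05 and -0.10. None of the 4 tested T and NK cell markers was called (0 at an unadjusted p under 0.05 by limma), and their mean ran from -0.05 to 0.24 in high, -0.18 to 0.28 in low and -0.20 to 0.12 in vehicle arrays. Gzma, a protease of cytotoxic lymphocytes below the filter, followed the division in part: it ran from 0.04 to 1.23 in high, -0.32 to 0.08 in low and -0.19 to 0.16 in vehicle arrays, and 11 of 13 high arrays exceeded all vehicle arrays. Its part in the interferon values was not tested.

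Antigen presentation followed the division in part. In class I, 6 of 10 tested genes were called higher and 3 separated high from low arrays, with a median of 0.32 for high minus vehicle and -0.01 for low minus vehicle. B2m (1452428_a_at), the light chain of every class I molecule, was 0.54, 0.99 and 1.32 at the lowest, median and highest high array. It was -0.13 in VTA 3, 0.31 in NAC 3, 0.19 in NAC 4, -0.12 in PFC 3 and -0.25 in PFC 6, against -0.20 to 0.22 in vehicle arrays. High arrays of B2m did not overlap either other class, and low arrays straddled the vehicle mean. Tap1, which pumps peptides into the endoplasmic reticulum, ran from 0.72 to 1.35 in high and from -0.15 to 0.36 in low arrays.

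The immunoproteasome, which cuts peptides for class I, gave 2 called of 4 tested. Psmb8 ran from 0.56 to 1.66 in high, -0.09 to 0.34 in low and -0.26 to 0.30 in vehicle arrays, and Psmb9 was 0.88 higher in high than in low arrays. In class II, 3 of 5 tested genes were called higher and the list median was 0.32 for high and 0.02 for low arrays. H2-Aa, a class II chain, ran from 0.17 to 0.91 in high and -0.05 to 0.09 in low arrays. Its vehicle arrays reached 0.44, so 8 of 13 high arrays exceeded them all. In bulk tissue, more cells that make a transcript and more transcript per cell cannot be told apart.

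Of 15 tested type I interferon antiviral genes, 11 were called higher and 8 separated high from low arrays. The list median was 0.61 for high minus vehicle and -0.01 for low minus vehicle. Rsad2, which makes an antiviral nucleotide, ran from 0.26 to 1.18 in high arrays (median 0.63). All 5 low arrays were below the vehicle mean, at -0.14 in VTA 3, -0.10 in NAC 3, -0.22 in NAC 4, -0.01 in PFC 3 and -0.35 in PFC 6, against -0.30 to 0.21 in vehicle arrays. Ifit1, which binds foreign RNA, ran from 0.32 to 1.26 in high arrays and -0.49 to 0.23 in low arrays, but vehicle arrays reached 0.68. Rtp4 ran from 0.50 to 1.15 in high and -0.09 to 0.16 in low arrays. The mean over this list lay between -0.08 and 0.10 in all 5 low arrays, so NAC 3 and PFC 3, intermediate for the GTPases, were within the vehicle range of -0.19 to 0.21 here.

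**Figure D2:**
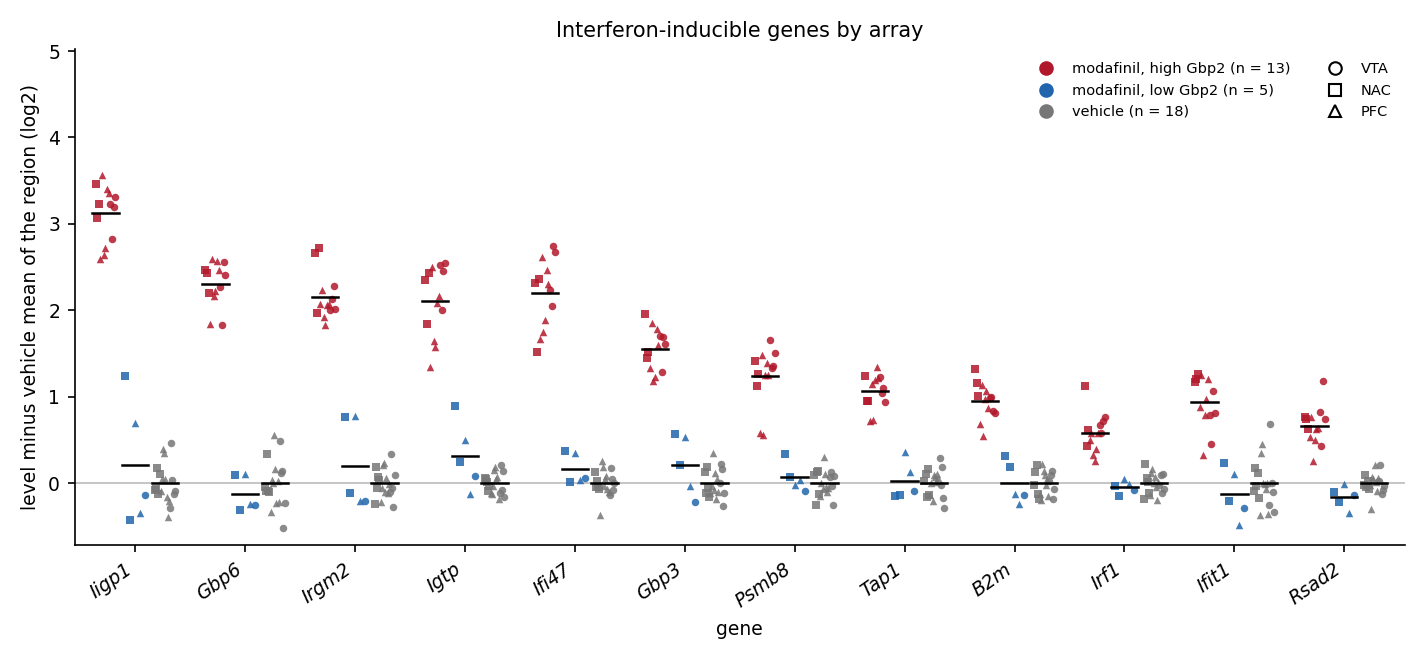
Interferon-inducible genes per array as log2 difference from the regional vehicle mean, with high, low and vehicle arrays from left to right in each panel; circles are VTA, squares NAC, triangles PFC, and black bars are group means. For the genes plotted the lowest high array stands above the highest low array, for Iigp1 at 2.59 to 3.56 in high and -0.42 to 1.24 in low arrays, where NAC 3 and PFC 3 are the higher low points.

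Some genes that belong to none of the interferon lists also followed the division. Xdh, which makes uric acid, ran from 0.94 to 2.08 in high and -0.29 to 0.45 in low arrays. Cd274, which encodes the checkpoint ligand PD-L1, ran from 0.77 to 1.95 in high and -0.22 to 0.26 in low arrays, and Tnfsf10, a death ligand, was 1.41 higher in high than in low arrays (1459913_at). Lcn2, an acute-phase protein that binds bacterial iron carriers, was below the filter and exceeded all vehicle arrays in 12 of 13 high arrays, with a median of 1.72 there and a highest low value of 0.18.

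The endothelial adhesion gene Icam2 was called higher but did not separate the classes. It ran from 0.28 to 0.97 in high, -0.13 to 0.29 in low and -0.23 to 0.43 in vehicle arrays. Microglia markers were not called by limma (0 of 12). At an unadjusted p under 0.05 by limma, 2 of the 12 were higher and 0 lower. Of all 27022 probe sets tested, 976 (3.61%) were higher and 3503 lower at that level. The microglia list median was 0.18 for high minus low, with all 12 genes higher in high arrays, against -0.05 over all probe sets. Ctss, a lysosomal protease that also processes class II peptides and was in both lists, was the 1 member that separated the classes, at -0.04 to 0.57 in high, -0.23 to -0.05 in low and -0.12 to 0.14 in vehicle arrays. The mean over the microglia list ran from -0.11 to 0.31 in high, -0.22 to -0.02 in low and -0.11 to 0.16 in vehicle arrays. Endothelial and mural markers had 0 of 13 called by limma, 3 at an unadjusted p under 0.05 (1 higher and 2 lower), and a median of 0.11 for high minus low. Monocyte and blood markers had 0 of 5 called by limma, 1 at an unadjusted p under 0.05, and the larger median of 0.28, with all 5 higher in high than in low arrays and all 5 below vehicle in low arrays. Their mean ran from -0.11 to 0.38 in high, -0.19 to -0.09 in low and -0.18 to 0.34 in vehicle arrays. Among them Lyz2, the lysozyme of myeloid cells, was 0.52 and Ptprc, the common leukocyte antigen, 0.39 higher in high than in low arrays. Choroid plexus and meningeal markers had 0 of 6 called by limma (0 at an unadjusted p under 0.05) and a median of 0.20, with all 6 higher in high arrays. The part of these cell type markers in the interferon values was not tested.

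The median of the clock repressors was above vehicle in high and in low arrays, though arrays of each class overlapped the vehicle arrays. The mean over the list ran from -0.0027 to 0.34 in high, -0.0055 to 0.26 in low and -0.13 to 0.15 in vehicle arrays. Among 10 tested repressors, 4 were called higher in modafinil arrays (Per2, Nr1d2, Per3 and Ciart) and 0 lower. The list median was 0.14 for high and 0.11 for low arrays against the same vehicle arrays (0.17 for low without PFC 3), with 10 and 9 of 10 genes above the vehicle mean. Of all 27022 probe sets tested, 8442 and 14855 were above it. No member separated high from low arrays. Per2, a core repressor, was 0.16, 0.30 and 0.60 at the lowest, median and highest high array. It was 0.22 in VTA 3, 0.24 in NAC 3, 0.15 in NAC 4, 0.42 in PFC 3 and 0.31 in PFC 6, and ran from -0.32 to 0.26 in vehicle arrays. All 13 high and all 5 low arrays were above the vehicle mean, though the highest vehicle arrays overlapped both classes. Per2 rose by 0.30 ± 0.05 (SE, limma adjusted p = 0.00013).

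Nr1d2, a nuclear receptor that represses Arntl, was likewise above the vehicle mean in all 13 high and all 5 low arrays. It ran from 0.002 to 0.39 in high arrays (median 0.19), and was 0.13 in VTA 3, 0.38 in NAC 3, 0.21 in NAC 4, 0.04 in PFC 3 and 0.19 in PFC 6, against -0.17 to 0.22 in vehicle arrays. The difference between high and low arrays was 0.04. Nr1d2 rose by 0.20 ± 0.04 (SE, limma adjusted p = 0.0020). Ciart, a repressor of the Arntl-Clock pair whose promoter is printed above, was less even. Its high arrays ran from 0.11 to 1.00 (median 0.56), and low arrays were 0.38 in VTA 3, 0.61 in NAC 3, -0.07 in NAC 4, -0.22 in PFC 3 and 0.82 in PFC 6, so 3 of 5 were above the vehicle mean. Without PFC 3 its low minus vehicle difference was 0.45, against 0.30 with it. Ciart rose by 0.49 ± 0.08 (SE, limma adjusted p = 0.00068), and Per3 by 0.15 ± 0.04 (SE, limma adjusted p = 0.030). Per1 had 0.15 ± 0.05 (SE, limma adjusted p = 0.13), with 0.14 in high and 0.18 in low arrays.

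The clock output factors leaned toward the high arrays. Dbp, a clock-driven activator, was the 1 called of 4 tested, rising by 0.47 ± 0.09 (SE, limma adjusted p = 0.0043) on probe set 1438211_s_at. It ran from 0.34 to 0.87 in high arrays (median 0.60), and was 0.27 in VTA 3, 0.08 in NAC 3, -0.38 in NAC 4, 0.28 in PFC 3 and 0.39 in PFC 6, against -0.37 to 0.56 in vehicle arrays. NAC 4 alone was below the vehicle mean, and the highest low array overlapped the high ones. Its other probe set, 1418174_at, differed by 0.17 between high and low arrays, against 0.47 on the first. Hlf, a relative of Dbp, had 0.37 ± 0.10 (SE, limma adjusted p = 0.074), with 0.49 in high and 0.05 in low arrays (0.15 without PFC 3). Nfil3, which opposes Dbp at the same sites, was not called, at -0.26 ± 0.12 (SE, limma adjusted p = 0.25), with -0.41 in high and 0.10 in low arrays (0.23 without PFC 3). The median of the 4 for low minus vehicle was 0.08, and 0.13 without PFC 3.

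Among 5 tested activators only Arntl was called, falling by 0.25 ± 0.06 (SE, limma adjusted p = 0.029). It ran from -0.54 to 0.22 in high arrays (median -0.37), and was 0.22 in VTA 3, -0.21 in NAC 3, -0.24 in NAC 4, -0.25 in PFC 3 and -0.26 in PFC 6, against -0.30 to 0.39 in vehicle arrays. In all, 4 of 5 low arrays and 12 of 13 high arrays were below the vehicle mean. After quantile normalization of all arrays the Arntl call was lost, at -0.21 (limma adjusted p = 0.079). Clock had -0.12 ± 0.04 (SE, limma adjusted p = 0.12).

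**Figure D3:**
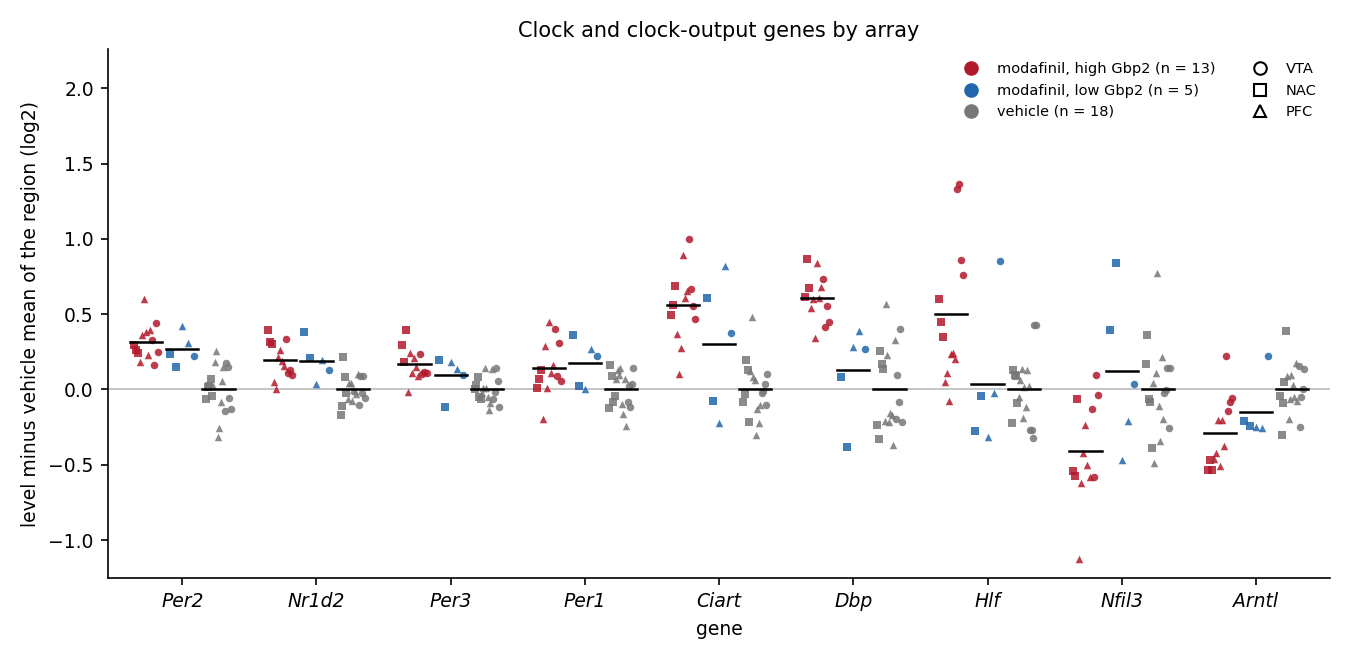
Clock genes per array as log2 difference from the regional vehicle mean, with high, low and vehicle arrays from left to right in each panel; circles are VTA, squares NAC, triangles PFC, and black bars are group means. Per2 is above the vehicle mean in all high (0.16 to 0.60) and all low (0.15 to 0.42) arrays.

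No dopamine gene was called, and the values furthest below vehicle were those of a few genes in VTA. Of 6 tested genes of dopamine synthesis, transport and breakdown and 7 of dopamine neuron identity, 0 passed limma in either direction, and at an unadjusted p under 0.05 there were 3 in each list, all lower, where 3503 of all 27022 probe sets tested were lower at that level. In the synthesis list 0 of 6 genes were above vehicle in high arrays and 3 in low arrays, and in the identity list 0 and 1 of 7, the last being Nr4a2, a factor of dopamine neurons, at 0.49 in low arrays. The list medians for low minus vehicle were -0.14 and -0.11 with PFC 3, and -0.26 and -0.27 without it. Th, which catalyses the slowest step toward dopamine, ran from -2.83 to 0.30 in high arrays (median -0.44). It was -1.36 in VTA 3, -0.37 in NAC 3, -0.75 in NAC 4, -0.54 in PFC 3 and -0.28 in PFC 6, against -0.98 to 1.69 in vehicle arrays. High, low and vehicle arrays overlapped widely, and the change was -0.67 ± 0.22 (SE, limma adjusted p = 0.13).

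Slc6a3, the dopamine transporter that modafinil binds, had -0.58 ± 0.22 (SE, limma adjusted p = 0.19), with -0.63 in high and -0.40 in low arrays (-0.62 without PFC 3). Within VTA, the one region that holds dopamine cell bodies, the mean Th level was 8.04 in 4 high arrays, 8.21 in the 1 low array and 9.57 in 5 vehicle arrays. Slc6a3 there was at 9.13 in high, 9.30 in low and 11.005 in vehicle arrays. These means hide a spread among the high arrays. The mean over the synthesis list was -1.28 in VTA 1, -0.85 in VTA 2, -1.02 in VTA 4 and -0.01 in VTA 5. It was -0.80 in the low array and -0.48 to 0.66 in vehicle VTA arrays. For the identity list VTA 5 was at -0.25, against -0.27 to 0.65 in vehicle VTA arrays, so VTA 5 lay within the vehicle range for each list. Prkcd, a kinase abundant in thalamus, ran the other way in VTA, at 10.23 in high, 10.44 in low and 8.11 in vehicle arrays. The thalamic and midbrain marker level was 0.63 to 1.42 in the 4 high VTA arrays (0.68 in VTA 5) and 0.88 in the low one, against -0.50 to 0.41 in vehicle VTA arrays. The part of these markers in the dopamine values was not tested.

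Of 12 tested glucocorticoid-responsive genes, 1 was called higher and 0 lower by limma, where 0.444% of all probe sets tested were called higher. At an unadjusted p under 0.05 by limma, 6 of the 12 were higher and 1 lower. Of all 27022 probe sets tested, 976 (3.61%) were higher and 3503 lower at that level. Tsc22d3, a glucocorticoid-induced leucine zipper protein, was the 1 called, rising by 0.21 ± 0.05 (SE, limma adjusted p = 0.015), with 0.23 in high and 0.17 in low arrays. Its low arrays were 0 in VTA 3, 0.37 in NAC 3, 0.40 in NAC 4, -0.04 in PFC 3 and 0.17 in PFC 6, so 3 of 5 were clearly above the vehicle mean. Fkbp5, another glucocorticoid target, was not called (limma adjusted p = 0.21), at 0.13 in high and 0.10 in low arrays. The activity-induced genes Fos and Egr1 were not called either (limma adjusted p = 0.89 and 0.50).

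Among genes lower in modafinil arrays, 0 of 107 probe sets separated high from low arrays, where 0.137% of all probe sets had high below low. Between the classes 50 of the 107 (46.7%) differed by under 0.1, against 57.7% of all probe sets tested, so neither count sets the lower genes apart from the rest. Mmp14, a membrane metalloprotease, ran from -0.80 to 0.02 in high arrays (median -0.20). It was -0.19 in VTA 3, -0.35 in NAC 3, -0.33 in NAC 4, -0.22 in PFC 3 and -0.39 in PFC 6, against -0.26 to 0.47 in vehicle arrays. All 5 low arrays and 12 of 13 high arrays were below the vehicle mean. Mmp14 fell by 0.28 ± 0.06 (SE, limma adjusted p = 0.0072), and Ntrk3, the neurotrophin-3 receptor, by 0.25 ± 0.05 (SE, limma adjusted p = 0.0052). Ntrk3 was -0.22 in high and -0.30 in low arrays, with all 5 low arrays between -0.42 and -0.10, against -0.17 to 0.18 in vehicle arrays. Sox9, a transcription factor of astrocytes, had -0.26 in high and -0.23 in low arrays and was the 1 of 11 tested astrocyte genes called lower. Gucy1a1, a subunit of the nitric oxide receptor, was -0.35 in high and -0.54 in low arrays.

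Cxcl12, the chemokine ligand of Cxcr4, followed the other pattern. It ran from -0.69 to -0.12 in high arrays (median -0.42), and was -0.01 in VTA 3, 0.02 in NAC 3, -0.16 in NAC 4, 0.16 in PFC 3 and -0.18 in PFC 6, against -0.42 to 0.30 in vehicle arrays. Every high array was below the vehicle mean, and low arrays lay on both sides of it. Cxcl12 fell by 0.30 ± 0.07 (SE, limma adjusted p = 0.016); after quantile normalization of all arrays the adjusted p by limma was 0.061. Pik3r3, a regulatory subunit of PI3-kinase, was -0.35 in high and -0.07 in low arrays.

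**Figure D4:**
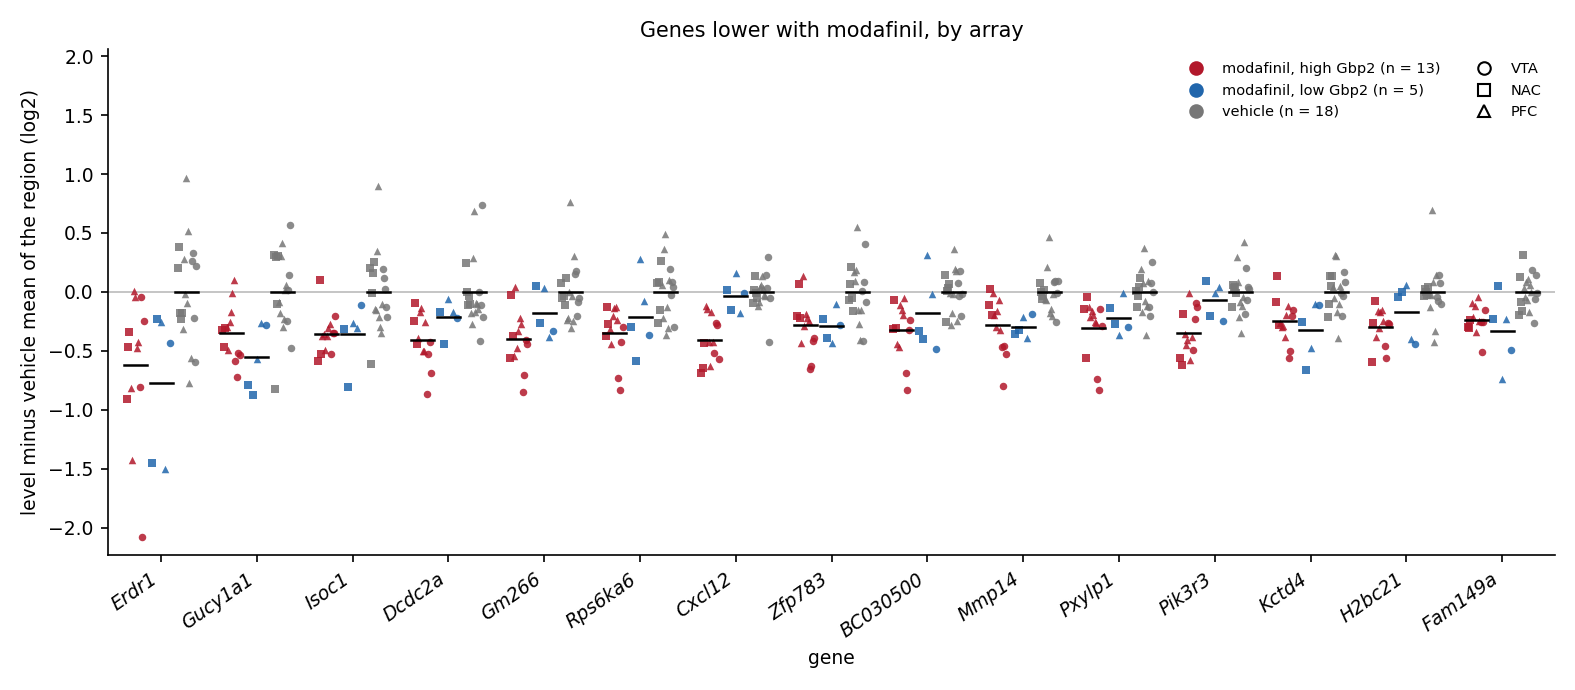
Genes lower in modafinil arrays, per array as log2 difference from the regional vehicle mean, with high, low and vehicle arrays from left to right in each panel; circles are VTA, squares NAC, triangles PFC, and black bars are group means. Mmp14 is below the vehicle mean in all 5 low arrays, whereas Cxcl12 is -0.69 to -0.12 in high arrays and -0.18 to 0.16 in low arrays.

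The genes with every high array below every low array changed little. The 37 probe sets covered 31 genes, with differences of 0.13 to 0.43 and medians of -0.13 for high minus vehicle and 0.08 for low minus vehicle. Aacs, which activates acetoacetate for lipid synthesis, had the largest named difference. It ran from -0.46 to -0.01 in high and 0.03 to 0.32 in low arrays, with -0.33 to 0.37 in vehicle arrays, and 2 high arrays lay below the vehicle range. Lonp2, a peroxisomal protease, had -0.18 in high and 0.14 in low arrays, and Hsd17b12, an enzyme of fatty acid elongation, -0.19 and 0.11. Quantile normalization of all arrays left 9 such probe sets, against 83 with high above low.

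Low arrays hardly separated from vehicle arrays. After subtracting the regional vehicle mean, 2 of 27022 probe sets (0.0074%) had no overlap, Rpain (0.18) and E130215H24Rik (0.21), both higher in low arrays. Without VTA 3, PFC 3 or PFC 6 the count was 22, 16 and 15, and with the 3 low arrays under 0.5 alone it was 41; without any other single array it was 1 to 6.

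Some marker lists depended on PFC 3. All 13 oligodendrocyte genes were lower in high than in low arrays, with a median of -0.20, but -0.07 without PFC 3. Striatal neuron markers had a median difference of -0.01, and 0.38 without PFC 3, and cortical markers -0.10 and -0.29 without it. Clock repressors kept 0.03 and 0.04. Monocyte and blood markers had 0.28 with and without PFC 3, and microglia markers 0.18 and 0.22. None of the oligodendrocyte, striatal, cortical or immediate early gene lists had a gene called between modafinil and vehicle by limma, and at an unadjusted p under 0.05 they had 1, 0, 1 and 1.

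**Figure D5:**
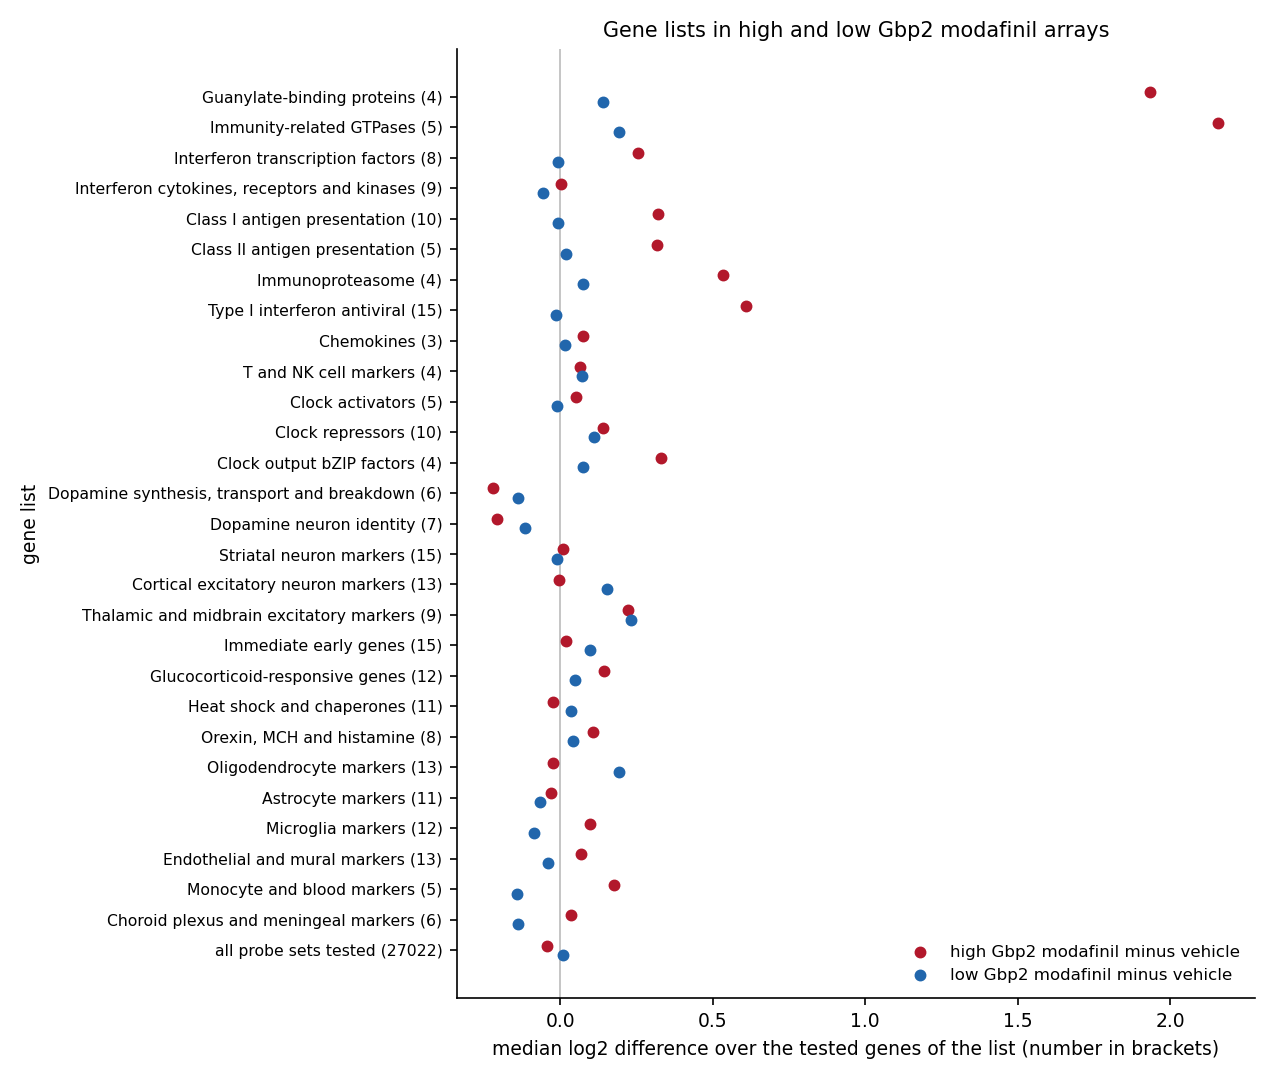
Median log2 difference from vehicle over the tested genes of each list, for high arrays (red) and low arrays (blue), the number of genes in brackets. The immunity-related GTPases stand at 2.16 and 0.19 and the clock repressors at 0.14 and 0.11.

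Covariation with Gbp2 could be tested in the vehicle arrays, which the division did not use. Over 27020 probe sets, the slope on Gbp2 with region as a factor called 0 by limma (smallest adjusted p = 0.12), with 2486 at an unadjusted p under 0.05, 1196 of them positive. Ifit1 had a slope of 1.00 ± 0.20 (SE, limma adjusted p = 0.16) and Gbp7 0.60 ± 0.12 (SE, limma adjusted p = 0.16) log2 units per unit of Gbp2. Per2 had 0.16 (limma adjusted p = 0.84). Vehicle Gbp2 spanned -0.48 to 0.45, a narrow range for such a slope.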

How the data were processed

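Values were used as deposited: the log2 expression values of 36 arrays and 45101 probe sets that the authors computed with RMA, per the submitters' processing notes; no RMA version was given in the sources used here. Arrays were not renormalized in the main setting. The 64 control probe sets were left out. Probe sets were named through the platform annotation and RefSeq: 34945 had 1 symbol, 932 several and 9160 none, and those without a single symbol were tested but not named. Probe sets with a mean over 36 arrays at or above the 40th percentile (6.39 log2) were tested, 27022 in all. That mean includes the high arrays, so some genes with large rises passed through them. Gbp2 was one, with vehicle means of 6.11 in VTA, 5.95 in NAC and 6.385 in PFC, against a floor of 6.389.

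Modafinil was compared with vehicle, and the slope on Gbp2 was fitted in vehicle arrays, with limma 3.58.1 (R 4.3.3), region as a factor, and Benjamini-Hochberg adjustment over all probe sets tested, threshold 0.05. High, low and vehicle classes were described by least squares with region as a factor and by overlap of arrays after subtracting the regional vehicle mean. The fits were tested on simulated data. For 28 gene lists (321 genes, 291 with a probe set, 238 tested) the brightest probe set of each gene was used. Named genes were the most changed called genes in each direction (up to 15), the most different separated genes (up to 10), up to 4 per list, and a set of clock, dopamine, interferon and activity genes. Lcn2, Nlrc5, Icam2, Gzma and Ntrk3 fall outside that rule and were named after their values were seen. The members and lists were chosen with earlier results of these data known. Alternatives covered the filter, normalization, array weights, blocks, the Gbp2 threshold and leaving out each array. The number of arrays limits the precision, most of all for the 5 low arrays.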

Additional observations from a re-analysis of the deposited data

Results flagged for a closer look

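In groups of 5 or 8 arrays, 21 of 174 sets of values held an array whose gap to the nearest other was large against the range of its group, where chance gives about 1 in 20. Each value below is a log2 level, the mean over the list unless a gene is named, with the nearest other array of the group.

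Of these, 5 belonged to the low modafinil array VTA 3. Its Gbp2 level was 5.92, against 9.02 in the next modafinil VTA array. Its guanylate-binding protein level was 6.94 (next 9.14), its immunity-related GTPase level 7.03 (next 9.09), its class I level 8.79 (next 9.13) and its immunoproteasome level 8.11 (next 8.67). Since Gbp2 made the classes, these restate the division.

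The low modafinil array PFC 3 was highest in its group for striatal neuron markers at 10.35 (next 9.02), dopamine neuron identity at 8.11 (next 7.64), dopamine synthesis, transport and breakdown at 8.97 (next 8.75) and thalamic and midbrain markers at 8.21 (next 8.03).

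Among high arrays, modafinil NAC 2 was lowest for dopamine neuron identity at 7.44 (next 7.89), modafinil VTA 2 lowest for orexin, MCH and histamine genes at 7.33 (next 7.81) and modafinil PFC 1 lowest for immediate early genes at 10.10 (next 10.30).

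Among vehicle arrays, VTA 1 was highest for dopamine neuron identity at 10.25 (next 9.56), NAC 2 lowest for clock activators at 9.08 (next 9.19) and highest for monocyte and blood markers at 6.78 (next 6.60), and NAC 5 lowest for thalamic and midbrain markers at 7.36 (next 7.68). PFC 2 was highest for interferon transcription factors at 7.69 (next 7.64) and lowest for heat shock genes at 11.14 (next 11.31), PFC 3 lowest for striatal markers at 8.79 (next 8.90), and PFC 4 lowest for cortical markers at 10.33 (next 10.52) and for orexin, MCH and histamine genes at 7.49 (next 7.68).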

How the results depend on the processing

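Of 38 named genes called between modafinil and vehicle, 23 were called under every alternative that could be run for them and 0 changed direction. Per2, Nr1d2, Ciart, Dbp, Irf1 and B2m were among the 23. H2bc21, Zfp783, Erdr1, Pik3r3, Rps6ka6, Isoc1 and BC030500 each lost the call in 18 to 32 alternatives. The count of 227 probe sets became 140 with the 60th percentile filter, 556 with array weights, 122 (91 higher, 31 lower) with array number within region as a replicate block, and 118 with a random block. The labels do not tie equal array numbers to one mouse, and not every pair of equal number correlated over 0.1: between modafinil and vehicle arrays of a region the deviations correlated at -0.52 to 0.26. Across regions the best match had the same number for 4 of 5 vehicle VTA arrays against NAC and 4 of 5 against PFC. For vehicle NAC against PFC it was 1 of 5, and for modafinil arrays 2 of 5 in every pair of regions. These matches do not settle whether array numbers mark mice. Leaving out one array gave 145 to 389, with 145 without modafinil VTA 1, 147 without modafinil NAC 1, 348 without vehicle NAC 2 and 389 without modafinil NAC 3. The 104 probe sets that separated high from low arrays became 106 to 232 when a modafinil array was left out and 94 at the lowest without a vehicle array. They became 77 with the division at 0.5, which moved NAC 3 and PFC 3 to high, 104 at 1.5, and 278 with those 2 arrays left out, an alternative chosen after seeing the data. For low against vehicle the 2 became 41 under the division at 0.5 and 41 with the 2 arrays left out, and 1 to 22 without one array. The slope on Gbp2 in vehicle arrays called 1 probe set after quantile normalization of all arrays, and 0 to 1 without one vehicle array (1 without NAC 5 or PFC 1). The causes of these moves were not tested. Quantile normalization of all arrays moved the median of each group by 0.17 to 0.25, and over all alternatives 9 list medians moved by more than their spread and 271 by less.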
